A study of Homo sapiens with 12 samples.

Results

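Reelin (RELN), its receptors VLDLR and LRP8, and the intracellular adaptor DAB1 were measured by RNA-seq in U2OS cells, a human osteosarcoma line. These 4 genes were taken by symbol from the 25369 genes in the count data, and all 4 passed the filter on low counts, as 16625 genes did. They were chosen by the level of RELN, which was lower in R109K cells than in WT cells, so the RELN values in that contrast, and in any contrast that uses either of these lines, are a description and carry no test. The comparison of KK with pTRE is the only one for RELN that uses the levels of neither line. Its test shares an estimate of spread from all 12 samples, those of R109K and WT included.

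There were 12 samples from 4 stable Tet-On lines, with 3 biological replicates per line. The pTRE line carried the empty vector, and the other lines carried HA-tagged E2F1 as the wild-type protein (WT), as the R109K mutant, or as the R111/113K mutant (KK). E2F1 is a transcription factor that switches on genes of the cell cycle. The arginine changed to lysine in R109K is a site of the methyltransferase PRMT1, and those changed in KK are sites of PRMT5. Every line, pTRE included, received doxycycline at 1 μg/ml for 24 hours and was grown under selection with G418 and hygromycin B, and transcription of the constructs was driven by the doxycycline-dependent promoter of pTRE2-hyg. There was 1 stable line per construct, so that the construct and the line cannot be told apart, and the text used here does not say whether a line was 1 clone.

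Reelin is a large secreted glycoprotein of the extracellular matrix, best known for guiding the layering of migrating neurons in the developing cortex. It binds VLDLR and LRP8 (also called ApoER2), members of the low-density lipoprotein (LDL) receptor family, and clustering of these receptors leads SRC family kinases to phosphorylate DAB1 on their cytoplasmic tails. Phosphorylated DAB1 recruits CRK family adaptors and phosphatidylinositol 3-kinase and is then degraded through a CUL5 ubiquitin ligase that contains SOCS7. Extracellular proteases cut reelin and limit its activity.

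The promoters of RELN, VLDLR, and LRP8 are shown because E2F1, the protein induced here, binds DNA at GC-rich sites. The sequences are those of RefSeq for GRCh38.p14, the 250 bases before the start of the transcript, written 5′ to 3′ on the strand of the gene with each CpG dinucleotide in capitals. RELN lies at chr7:103989659-103989908 (minus strand), VLDLR at chr9:2621537-2621786 (plus strand), and LRP8 at chr1:53328071-53328320 (minus strand).
RELN: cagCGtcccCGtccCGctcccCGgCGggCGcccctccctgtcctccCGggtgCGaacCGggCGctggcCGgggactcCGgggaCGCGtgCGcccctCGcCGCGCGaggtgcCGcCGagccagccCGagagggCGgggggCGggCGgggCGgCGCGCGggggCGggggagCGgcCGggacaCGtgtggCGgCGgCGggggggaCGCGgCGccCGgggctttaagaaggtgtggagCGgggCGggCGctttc
VLDLR: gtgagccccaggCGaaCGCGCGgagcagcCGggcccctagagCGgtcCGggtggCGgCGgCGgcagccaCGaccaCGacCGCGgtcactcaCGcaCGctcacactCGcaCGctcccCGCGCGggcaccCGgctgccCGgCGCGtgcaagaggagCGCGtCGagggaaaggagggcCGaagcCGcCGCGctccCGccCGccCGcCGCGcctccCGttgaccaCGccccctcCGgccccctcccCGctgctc
LRP8: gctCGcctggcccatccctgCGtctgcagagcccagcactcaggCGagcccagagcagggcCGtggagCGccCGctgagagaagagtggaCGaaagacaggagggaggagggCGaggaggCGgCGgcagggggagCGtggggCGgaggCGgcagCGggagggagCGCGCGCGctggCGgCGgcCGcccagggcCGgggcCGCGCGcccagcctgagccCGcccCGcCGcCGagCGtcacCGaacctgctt

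Each of these windows was dense in CpG. Over 300 bases, from 250 before to 50 after the start, RELN had 52 CpG dinucleotides and 83.3% G and C, VLDLR had 49 and 79.0%, and LRP8 had 41 and 78.3%. The median of 35097 such windows over all genes was 14 CpG dinucleotides and 58.7% G and C, and 99.4% of windows had as many as RELN or fewer. DAB1 had 6 start sites, whose windows held 13 to 48 CpG dinucleotides.

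The E2F motif was searched on both strands as the 7-base words TTNNCGC, where each N is C or G, and as the same words with a further T in front, so that every 8-base match is also a 7-base match. No window of the 4 genes held a match, and over all windows 3.32% held an 8-base word and 12.97% a 7-base word. A wider window on GRCh37 ran from 900 bases before to 100 after the start of 1 reference transcript per gene. Other starts of DAB1 were not searched in this way. Within these windows LRP8 alone among the 4 had matches. These were TTGCCGC on the strand opposite the gene at 59 and 76 bases after the start. They are shown on the strand of the gene with the match in capitals, at chr1:53793677-53793683 and chr1:53793660-53793666.
LRP8 at 59: cgggggcaGCGGCAAccccggcg
LRP8 at 76: ccggcgccGCGGCAAggactcgg
Of 19861 wider windows, 8.5% held an 8-base word and 30.56% a 7-base word.

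Depth ran from 11500537 to 31040903 reads on genes. The shallowest sample, WT replicate 2, had 58.7% of its reads assigned to no counted feature, against 23.6% to 29.6% in the other 11 samples. Such reads may lie outside genes or in parts of genes that were not counted. The level of the induced gene checked the label of pTRE against those of the E2F1 lines. Counts per gene cannot check which E2F1 allele a line carried. In CPM, the counts scaled to the size of the library, E2F1 was at 1811 ± 445 (SD, n = 3) in WT, 1158 ± 196 in R109K, and 1316 ± 187 in KK, against 91.2 ± 9.43 in pTRE. Of the markers of the labelled osteosarcoma cells, COL1A1, SPARC, RUNX2, and SPP1 were read in every sample. COL1A2, IBSP, BGLAP, and SP7, a defining factor of osteoblasts, were below 1 CPM throughout.

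RELN was nearly silent in the pTRE line and was read in every line with an E2F1 construct, and its rise in KK over pTRE passed the test. The pTRE replicates held 1, 3, and 4 reads on RELN, which is 0.0413, 0.114, and 0.147 CPM. The KK replicates held 115, 87, and 57 reads, which is 3.98, 4.18, and 2.25 CPM. The WT replicates held 192, 107, and 100 reads (6.84, 8.59, and 3.61 CPM), and the R109K replicates held 32, 27, and 15 reads (1.04, 0.981, and 0.614 CPM). Every R109K sample thus lay above every pTRE sample and below every KK and WT sample, whereas the KK and WT samples overlapped. Samples did not overlap for 27.1% of all tested genes between R109K and WT and for 21% between R109K and KK.

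RELN rose in KK by 5.01 on the log2 scale relative to pTRE (SE 0.49, 95% interval 3.96 to 6.06, adjusted p = 1.79e-06 by edgeR). The alternatives that kept all samples of both lines gave 4.98 to 5.09, with adjusted p from 9.36e-15 to 1.69e-05. With 1 replicate left out the change was 4.67 to 5.37, with adjusted p from 4.62e-07 to 4.39e-05. A gene was called when its adjusted p was below 0.01 and it had changed more than 2-fold. RELN was the only 1 of the 4 genes called in this comparison, in which 10.9% of all tested genes were called and 7.01% were called higher. Because pTRE had 8 RELN reads in all, the fold is known loosely. The ratio of RELN reads at equal depth was 33.5 with a 95% counting interval of 16.8 to 78.5. The interval covers counting error only. In bulk RNA, a change in the number of cells that express RELN and a change in RNA per cell cannot be told apart.

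In the contrasts that chose RELN or share its lines, the fitted log2 change from pTRE was 5.87 in WT (SE 0.49) and 3.05 in R109K (SE 0.55). The change from WT to R109K was −2.82 (SE 0.36) and that from KK to R109K was −1.96 (SE 0.36). The mean level was 0.101 ± 0.0540 CPM in pTRE, 0.877 ± 0.230 in R109K, 3.47 ± 1.06 in KK, and 6.35 ± 2.53 in WT (SD, n = 3). The R109K mean was therefore 13.8% of the WT mean and 25.3% of the KK mean. KK stood at 54.6% of WT, a log2 difference of −0.85 (SE 0.32), with overlapping samples. The highest WT value came from WT replicate 2, the shallow sample, and without it the change from WT to R109K was −2.56 and that from WT to KK was −0.59.

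**Figure D1:**
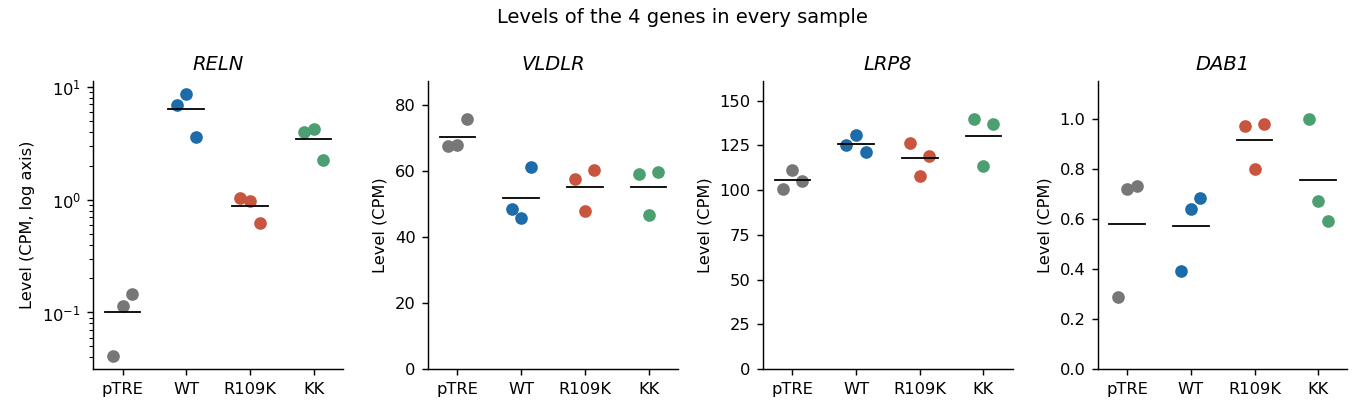
Levels of RELN (log axis), VLDLR, LRP8, and DAB1 (linear axes) in CPM for every sample of the 4 lines, with points for replicates and bars for means. RELN spans 0.0413 to 8.59 CPM, with the R109K samples between those of pTRE and KK, while VLDLR and LRP8 stay between 45.5 and 140 CPM in all samples.

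Levels of E2F1 differed among the lines as well. E2F1 in R109K differed from WT by −0.65 on the log2 scale (SE 0.18) without overlap, and R109K and KK differed by −0.18 (SE 0.18) with overlapping samples. Per 1000 E2F1 reads, the R109K samples held 0.659 to 0.809 RELN reads, the KK samples 2.02 to 2.93, and the WT samples 2.46 to 5.21. The pTRE samples, with 1 to 4 RELN reads and 2160 to 2763 E2F1 reads each, held 0.463, 1.37, and 1.45, so that 2 of the 3 lay above every R109K sample. These ratios use the samples that chose RELN and are a description only. The part of E2F1 level in the RELN values was not tested.

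Neuronal markers, which would mark the cells in which RELN is best known, did not move together. The 9 neuronal markers summed to 245 to 290 CPM in pTRE, and to 152 to 185 in KK, 173 to 187 in R109K, and 126 to 174 in WT. TUBB3, a tubulin, and CALB2, a calcium-binding protein found in reelin-secreting neurons of the cortex, were the most highly read in pTRE, at means of 104 and 83.8 CPM, and were lower in every E2F1 line, at means of 32.7 to 38.5 and 40.5 to 48.3 CPM. RBFOX3, a splicing factor of mature neurons, had its highest mean in R109K, at 52.0 CPM, and was at 37.1 in KK, 29.95 in WT, and 23.6 in pTRE. SYP, a synaptic vesicle protein, had a mean of 36.8 CPM in WT and 28.3 in KK, and of 23.3 in both pTRE and R109K. Relative to pTRE, 5 of the 9 had a fitted change above 0 in each line, and 0 were called higher and 3 lower in WT, 0 and 2 in KK, and 1 and 1 in R109K. STMN2, ELAVL4, and TBR1, a factor of early cortical neurons, were below 1 CPM in all 12 samples. Blood and endothelial markers summed to at most 1.07 CPM. The summed osteoblastic markers were highest in pTRE, at 4695 to 5895 CPM, against 1268 to 1505 in KK, 1595 to 1745 in R109K, and 1025 to 1397 in WT. COL1A1 and SPARC made up most of this sum in every line, whereas ALPL had its highest mean in KK. The part of the neuronal, epithelial, or osteoblastic list in the RELN result was not tested.

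VLDLR, the receptor that binds reelin with LRP8 and also takes up triglyceride-rich lipoproteins, was somewhat lower in all 3 E2F1 lines, without passing the thresholds. The pTRE samples were at 67.4, 67.8, and 75.7 CPM. The WT samples were at 48.4, 45.5, and 61.1, the R109K samples at 57.4, 47.8, and 60.1, and the KK samples at 59.0, 46.6, and 59.6. All 9 samples of the E2F1 lines were below all 3 pTRE samples, and the E2F1 lines overlapped each other.

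The fitted VLDLR change from pTRE was −0.44 in WT (SE 0.14, adjusted p = 0.0200), −0.35 in KK (SE 0.14, adjusted p = 0.0596), and −0.35 in R109K (SE 0.14, adjusted p = 0.0723). None of these reached 2-fold or an adjusted p-value of 0.01. VLDLR in R109K and KK differed by −0.0004 on the log2 scale, with a 95% interval of −0.30 to 0.30, and in KK and WT by 0.09, with an interval of −0.21 to 0.39. Between KK and pTRE, 49.4% of all tested genes had samples that did not overlap, as VLDLR did.

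**Figure D2:**
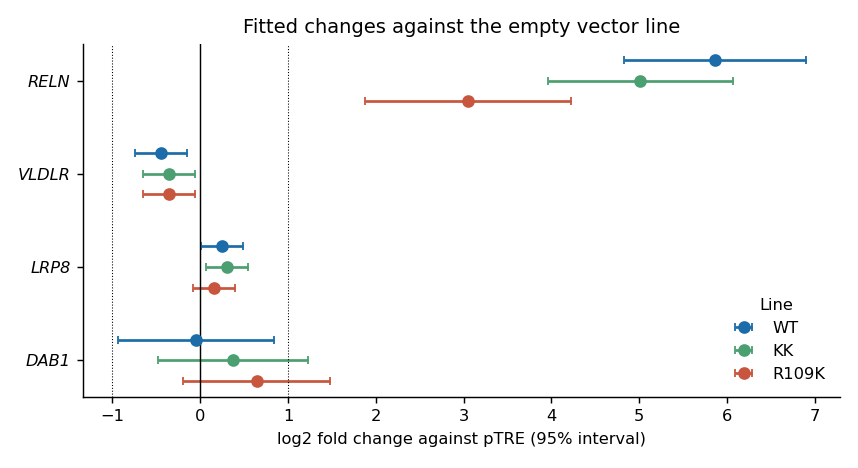
Fitted log2 fold changes of the 4 genes in WT, KK, and R109K relative to pTRE, with 95% intervals as bars and dotted lines at 2-fold. Only RELN lies beyond 2-fold, at 5.87, 5.01, and 3.05, while the intervals of VLDLR lie below 0 in every line and those of DAB1 include 0.

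VLDLR-AS1, a noncoding gene on the strand opposite VLDLR, fell in all 3 E2F1 lines. It held 44, 37, and 31 reads in pTRE, 9, 8, and 12 in WT, 9, 7, and 11 in R109K, and 12, 13, and 16 in KK. The pTRE samples were above all the others. Its log2 change from pTRE was −1.70 in WT (SE 0.38, adjusted p = 0.00239), −1.39 in KK (SE 0.36, adjusted p = 0.0072), and −2.12 in R109K (SE 0.38, adjusted p = 6.47e-04). All 3 were called, against 3.93%, 3.9%, and 2.56% of tested genes called lower in WT, KK, and R109K.

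The calls for VLDLR-AS1 in WT and KK rested on single samples. The WT call was lost without pTRE replicate 1 or WT replicate 1, with adjusted p of 0.0147 and 0.0163, and the KK call was lost without pTRE replicate 1 or 2 or any KK replicate (adjusted p from 0.0163 to 0.0438) and with DESeq2 (adjusted p = 0.0103), whereas the R109K call held without any one sample. VLDLR-AS1 shares 1276 bases with VLDLR. The libraries kept the strand, but the strand setting of the counting is not given in the sources used here. It is thus not known whether reads from the shared stretch were counted for a gene or set aside as ambiguous. VLDLR-AS1 had 2.09 reads per 100 VLDLR reads in pTRE, 0.928 in WT, 0.597 in R109K, and 1.03 in KK. DAB1-AS1, which overlaps DAB1, had 0 to 2 reads per sample and was not tested.

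LRP8, the reelin receptor that also binds apolipoprotein E and selenoprotein P, was slightly higher in the E2F1 lines. The pTRE samples were at 100, 111, and 105 CPM. The WT samples were at 125, 131, and 121, the R109K samples at 127, 108, and 119, and the KK samples at 140, 113, and 137. All WT and KK samples were above all pTRE samples, whereas R109K overlapped pTRE.

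The fitted LRP8 change from pTRE was 0.25 in WT (SE 0.11, adjusted p = 0.0846), 0.30 in KK (SE 0.11, adjusted p = 0.0462), and 0.16 in R109K (SE 0.11, adjusted p = 0.324), and none was called. Between R109K and KK it differed by −0.14, with a 95% interval of −0.38 to 0.10, and between KK and WT by 0.05, with an interval of −0.19 to 0.29. In WT, where 51.5% of all tested genes did not overlap with pTRE and 11.8% were called, neither receptor was called.

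VLDLR and LRP8 thus lay on opposite sides of their pTRE levels, and their ratio within a sample, chosen after these values were seen, needs no scaling for depth. There were 0.611 to 0.720 VLDLR reads per LRP8 read in pTRE, against 0.411 to 0.436 in KK, 0.443 to 0.503 in R109K, and 0.348 to 0.503 in WT. All 9 samples of the E2F1 lines were below the pTRE samples. In each of the 3 comparisons with pTRE, the two-sided exact permutation test gave p = 0.1, the smallest that 3 against 3 samples allow, and 0.125 after adjustment over the 5 comparisons made. For WT and KK this outcome was fixed by the separation of both genes from pTRE given above, so the test adds nothing to it. R109K was higher than KK without overlap (exact permutation p = 0.1, adjusted 0.125), and KK and WT overlapped (exact permutation p = 0.9, adjusted 0.9).

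DAB1, the adaptor that carries the signal from both receptors, was barely read, and no line passed the test. Its counts were 7, 19, and 20 in pTRE, 11, 8, and 19 in WT, 30, 22, and 24 in R109K, and 29, 14, and 15 in KK. R109K lay above pTRE and WT without overlap, and the other lines overlapped pTRE. The mean level was 0.582 ± 0.254 CPM in pTRE, 0.574 ± 0.159 in WT, 0.918 ± 0.103 in R109K, and 0.756 ± 0.218 in KK (SD, n = 3).

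The log2 change of DAB1 from pTRE was 0.64 in R109K (SE 0.39, 95% interval −0.19 to 1.48, adjusted p = 0.249), 0.38 in KK (SE 0.40, adjusted p = 0.503), and −0.05 in WT (SE 0.42, 95% interval −0.94 to 0.84, adjusted p = 0.930). Every interval included 0 and, in KK and R109K, reached past 2-fold, so that no change was detectable at this depth. In R109K against pTRE, 7.19% of all tested genes were called and 47.2% did not overlap, and of the 3 genes for which a test was made, none was called. In R109K against KK, where 0.0902% of all tested genes were called, and in KK against WT, where 0.00602% were, none of VLDLR, LRP8, and DAB1 was called. In R109K against WT, the contrast that chose RELN, 0.343% of all tested genes passed the same thresholds, and the values of the 4 genes in it are given as a description only.

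Compared per length, the receptors stood far above the ligand and the adaptor. In RPKM, reads per kilobase of merged exons at equal depth, LRP8 was at 5.37 ± 0.271 in pTRE and 5.99 to 6.62 in the means of the E2F1 lines, and VLDLR was at 4.26 ± 0.286 in pTRE and 3.13 to 3.34 in the E2F1 lines (SD, n = 3). DAB1 was at 0.0760 to 0.122 and RELN at 0.00284 in pTRE, 0.0248 in R109K, 0.0979 in KK, and 0.179 in WT, all as group means on this scale. The order was LRP8, VLDLR, DAB1, and RELN in pTRE and R109K. In WT, RELN stood above DAB1 without overlap, and in KK, RELN (0.0979 ± 0.0299) and DAB1 (0.10 ± 0.0289) did not differ beyond their spread. With the length of 1 reference transcript per gene in place of merged exons, RELN stood at 0.296 in KK and DAB1 at 0.143. RELN covers chr7:103111828-103630105, VLDLR chr9:2621182-2660056, LRP8 chr1:53708036-53794141, and DAB1 chr1:57460451-59012406 on GRCh37, the build of the reads.

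Genes with a pattern like that of each member were ranked by Pearson correlation of log2 CPM over the 12 samples, which share library and line, so that the correlations are a description without p. For RELN the closest 5 of 13304 genes were RAB11FIP3 (r = 0.994), RELT (0.990), CDAN1 (0.990), GFOD1 (0.989), and VEPH1 (0.987), and 687 genes had r over 0.9. RAB11FIP3 is an effector of RAB11 in endosome recycling and RELT a receptor of the TNF receptor family. The mean level of RAB11FIP3 was 49.1 CPM in pTRE, 67.3 in R109K, 87.2 in KK, and 100.2 in WT, the same order of lines as RELN over a far smaller range. VEPH1 had the widest range of the 5, from 1.60 CPM in pTRE to 3.57 in R109K, 6.18 in KK, and 7.78 in WT.

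**Figure D3:**
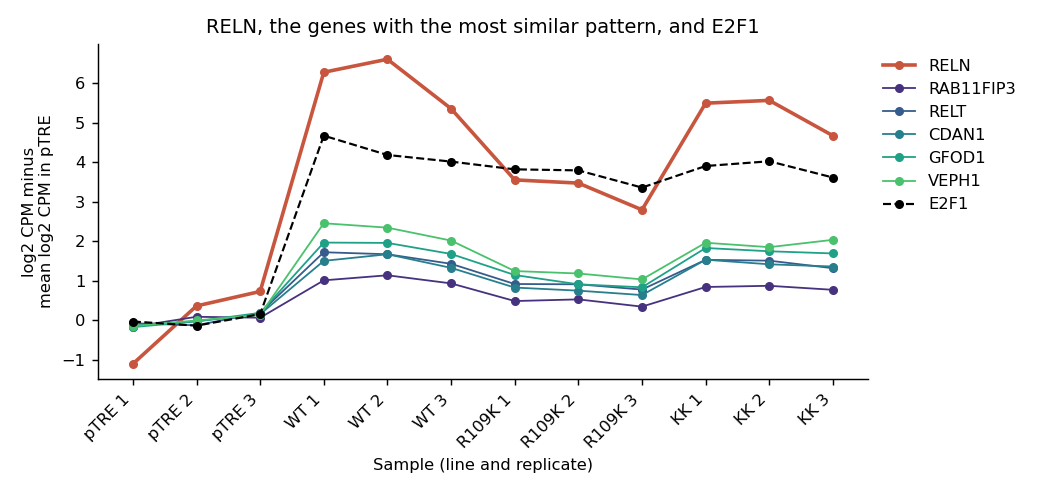
Level of RELN, of the 5 genes with the most similar pattern, and of E2F1 in every sample, as log2 CPM minus the mean of pTRE. RELN and the 5 genes are lower in the R109K samples than in the KK and WT samples. The E2F1 values of R109K overlap those of KK and lie below those of WT.

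The patterns of the other members had other close genes. For VLDLR they were DSC2 (r = 0.962), a desmosomal cadherin, NDRG3 (0.957), and ACSS3 (0.956). For LRP8 they were DYRK3 (0.973), a kinase, MICAL2 (0.959), and RCAN3 (0.958). For DAB1, CCDC69 had r = 0.913 and the next, FOXD2 and PLCB3, had 0.871 and 0.844, the lowest values of the 4 members. By Spearman correlation, VEPH1 ranked 213 for RELN, DSC2 ranked 95 for VLDLR, and NDRG3 ranked 2.

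Around the 4 genes, 79 genes of the pathway were listed by role, and 76 of them passed the filter. Relative to pTRE, 6 rose and 3 fell in WT. There were 7 rises and 4 falls in KK, and R109K had 2 of each. These shares (11.8%, 14.5%, and 5.26%) stood beside 11.8%, 10.9%, and 7.19% of all tested genes. The median log2 change of the listed genes was −0.054, −0.028, and −0.043, and that of all genes was 0.002, −0.009, and −0.001. The lists were chosen with earlier results of these data known and were not tested as sets.

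Among the reelin proteases, 4 of 5 listed were tested. ADAMTS5 rose by 1.96 on the log2 scale in WT (SE 0.45, adjusted p = 0.00317) and by 1.77 in KK (SE 0.45, adjusted p = 0.00629), and in R109K its change was 1.29 (SE 0.46, adjusted p = 0.0476). The WT call was lost without pTRE replicate 2 or 3 (adjusted p = 0.0195 and 0.0175), and the KK call without pTRE replicate 2 or 3 or any KK replicate (adjusted p from 0.0123 to 0.0371). The pTRE mean of ADAMTS5 was 6.67 reads per sample. Of the 4 tested, 3 had a fitted change below 0 in WT and in KK, and 2 in R109K, none of them called. Tissue plasminogen activator (PLAT), which also cuts reelin, was the most highly read of the list at 61.8 to 153 CPM. Its mean was 126 CPM in pTRE, 68.4 in WT, 83.0 in R109K, and 68.8 in KK. The mean of ADAMTS3 was 72.0 CPM in pTRE, 51.6 in WT, 52.7 in R109K, and 53.1 in KK.

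Among 7 other ligands of the receptors and their chaperone, 6 were tested. CLU (clusterin), a secreted chaperone that binds VLDLR and LRP8, fell by 1.31 in WT (SE 0.17, adjusted p = 3.13e-05) and by 1.29 in KK (SE 0.17, adjusted p = 3.79e-05), and its R109K change was −0.80 (SE 0.17, adjusted p = 0.00257), short of 2-fold. Its level was 925 ± 117 CPM in pTRE, 372 ± 89.9 in WT, 530 ± 14.9 in R109K, and 378 ± 63.2 in KK. All samples of the E2F1 lines were below pTRE. APOE (apolipoprotein E), a lipid carrier that binds both receptors, rose in KK by 1.25 (SE 0.31, adjusted p = 0.0051), from 1.24 ± 0.393 to 2.97 ± 1.03 CPM. The APOE call was lost without pTRE replicate 1 or 2 or KK replicate 2 or 3, where the change was 0.94 to 1.32.

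Thrombospondin 1 (THBS1), a matrix protein that binds both receptors, was the only listed gene called in a direct comparison of 2 E2F1 lines. In that comparison, R109K against KK, 0.0902% of all tested genes were called and 21% had samples that did not overlap. Its levels were 254, 217, and 220 CPM in R109K and 482, 389, and 514 CPM in KK. R109K lay below KK with a difference of −1.002 on the log2 scale (SE 0.14, 95% interval −1.30 to −0.71, adjusted p = 0.00451). The WT samples (329 to 339 CPM) and pTRE samples (278 to 371 CPM) lay between the other lines without overlap. The change was just at the 2-fold limit, and the call was lost in 9 of the alternative settings, among them without any R109K replicate or KK replicate 1 or 3, where the change was −1.08 to −0.92 and the adjusted p was 0.0201 to 0.0563.

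**Figure D4:**
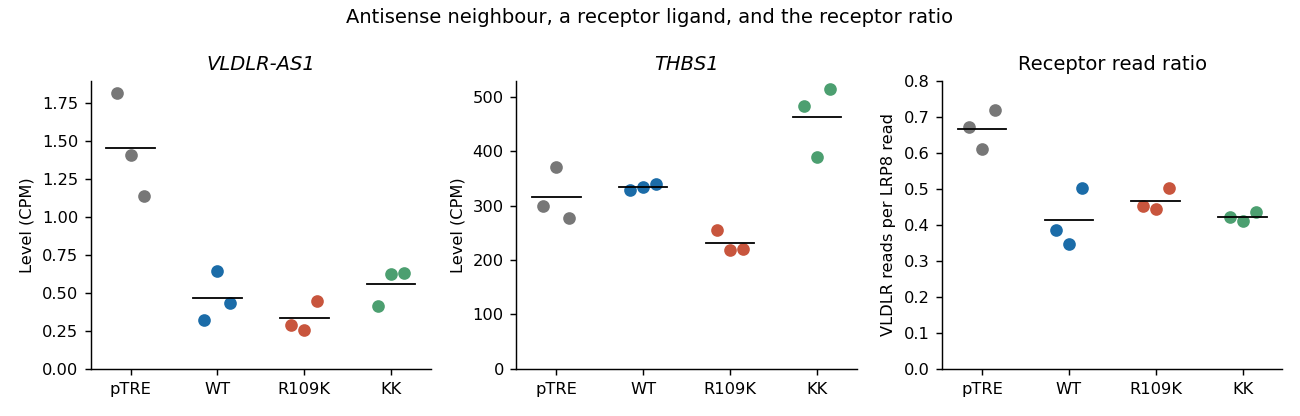
Levels of VLDLR-AS1 and THBS1 in CPM and the number of VLDLR reads per LRP8 read in every sample, with bars at the means. VLDLR-AS1 and the ratio are highest in pTRE (1.14 to 1.82 CPM and 0.611 to 0.720), and THBS1 is lowest in R109K and highest in KK.

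The kinases and adaptors through which DAB1 signals were not called in any line, with 0 of 18 in each comparison with pTRE and 0.57 as the largest absolute log2 change. Of all tested genes, 11.8% were called in WT, 10.9% in KK, and 7.19% in R109K, so that few calls would be looked for among 18 genes. CRKL, the adaptor that binds phosphorylated DAB1, was the most highly read of them, at 207 to 333 CPM. Of the 6 genes of receptor and DAB1 turnover, SOCS7 rose in WT by 1.07 (SE 0.14, adjusted p = 2.70e-05), and its changes in KK and R109K were 0.89 and 0.77, short of 2-fold. Without WT replicate 2 the WT change was 0.99 and no longer called, and without KK replicate 2 the KK change was 1.03 and called. ARIH2, a ubiquitin ligase that works with CUL5, was the most highly read of that list, at 119 to 139 CPM, and was not called.

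Of 19 genes of the cytoskeleton and cell adhesion, 18 were tested. CDK5R1, the activator p35 of the neuronal kinase CDK5, rose by 1.27 in WT (SE 0.16, adjusted p = 1.71e-05) and by 1.14 in KK (SE 0.16, adjusted p = 4.78e-05), and its R109K change was 0.62 (SE 0.16, adjusted p = 0.00844). CDH2, the N-cadherin that holds migrating neurons, fell in KK by 1.02 (SE 0.14, adjusted p = 4.62e-05), and its WT and R109K changes were −0.84 and −0.60. Without KK replicate 2 the KK change of CDH2 was −0.92 and no longer called, and without WT replicate 3 the WT change was −1.02 and called. ITGB1, the integrin beta 1 chain, was the most highly read, at 894 to 1531 CPM, and was not called.

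In the rest of the LDL receptor family, 12 genes were tested and LRP1 fell and LRP2 rose in every line. LRP1, a large endocytic receptor, fell by 1.34 in WT, 1.76 in KK, and 1.40 in R109K (SE 0.25 in each, adjusted p from 6.25e-05 to 6.07e-04), from 425 ± 107 CPM in pTRE to means of 125 to 168. LRP2 (megalin), the endocytic receptor of kidney tubules, rose by 3.48, 3.02, and 3.16 (SE 0.72, 0.74, and 0.72, adjusted p from 0.00143 to 0.00459), on a mean of 1.33 reads per sample in pTRE. The LRP2 call in KK was lost without any pTRE replicate or KK replicate 1 (adjusted p from 0.0137 to 0.0336), and that in R109K without any pTRE replicate or R109K replicate 1 or 3 (adjusted p from 0.0137 to 0.0202). LRP3 rose in KK by 1.07 (SE 0.15, adjusted p = 5.08e-05), and LRP5, a Wnt coreceptor, fell in R109K by 1.11 (SE 0.18, adjusted p = 2.91e-04). The LRP3 change was 0.95 without pTRE replicate 1 and 0.92 without KK replicate 2, and the LRP5 change was −0.92 without pTRE replicate 3 and −0.99 without R109K replicate 2, none of them called. LRP3 in WT, at 0.88, was called only without pTRE replicate 3, at 1.03.

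Of 12 adaptors that, like DAB1, carry a phosphotyrosine-binding domain, all were tested. APBA1, an adaptor of amyloid precursor protein, rose by 2.16 in WT, 2.04 in KK, and 1.58 in R109K (SE 0.19 in each, adjusted p from 7.55e-07 to 2.77e-05). MAPK8IP2, a scaffold of the JNK pathway that binds LRP8, rose by 2.47 in WT (SE 0.40, adjusted p = 1.89e-04) and 2.01 in KK (SE 0.40, adjusted p = 0.00107), and its R109K change was 1.498 (SE 0.40, adjusted p = 0.0115). NUMBL, a Numb-like adaptor, fell by 1.29 in WT (SE 0.16, adjusted p = 1.25e-05) and by 1.07 in KK (SE 0.15, adjusted p = 6.62e-05), and its R109K change was −0.95, short of 2-fold. The KK change of NUMBL was −0.95 without pTRE replicate 3 and −0.98 without KK replicate 1, neither called, and its R109K change was −1.04 and called without pTRE replicate 1. MAPK8IP2 in R109K was called without pTRE replicate 3 (2.12) or WT replicate 2 (1.49), and also by DESeq2 (adjusted p = 0.0023). APBB2 was the most highly read, at 84.0 to 169 CPM, and was not called. The differences between lines in these changes were tested directly, and no listed gene other than THBS1 was called in R109K against KK or in KK against WT by edgeR. Over all genes, 2062 and 1415 had an unadjusted p-value under 0.05 in these comparisons.

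**Figure D5:**
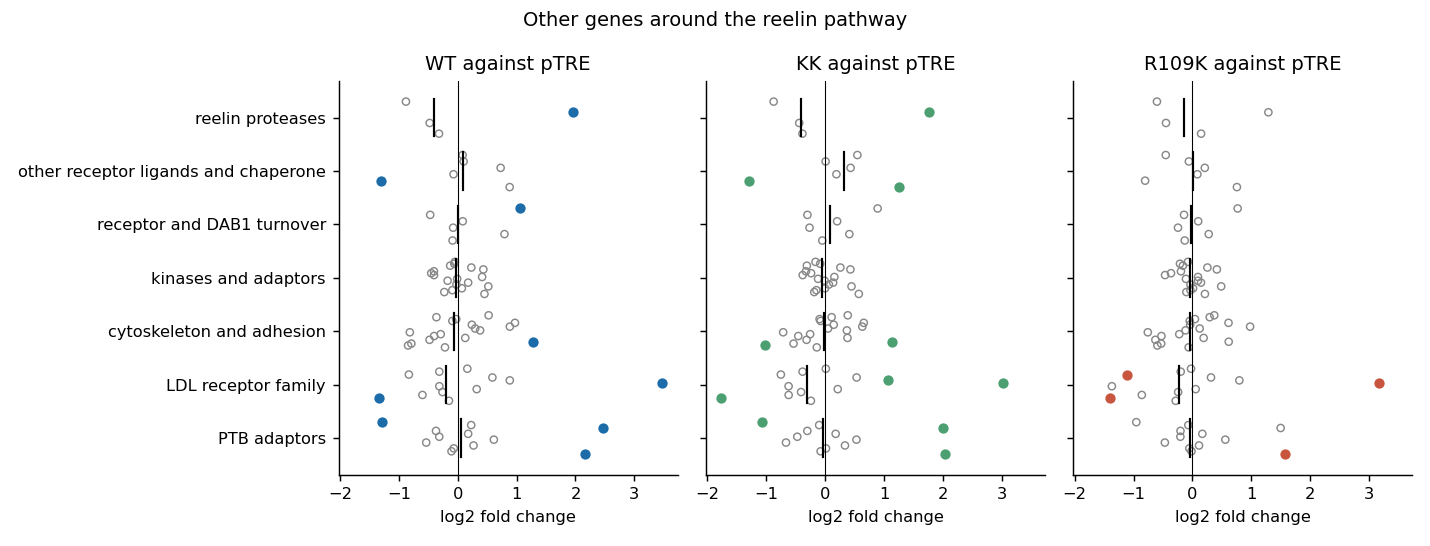
Fitted log2 fold changes relative to pTRE of the 76 tested genes of 7 lists around the reelin pathway, with filled points for called genes and black bars at list medians. The 18 kinases and adaptors hold no filled point in any line, and LRP2 is the point farthest to the right in each. Of all tested genes, 11.8% were called in WT, 10.9% in KK, and 7.19% in R109K.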

How the data were processed

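The 12 RNA-seq samples were grouped by their labels into 4 lines with 3 biological replicates per line. Per the labels and the study's methods, the authors enriched poly(A) RNA, made strand-preserving libraries, trimmed reads with Trim Galore 0.4.3, and aligned them to hg19 (GRCh37) with STAR 2.5.1. The deposited values are raw counts of reads per gene for 25369 genes, followed by 5 summary lines that were left out of library sizes and tests. The gene annotation and the strand setting of the counting are not given in the sources used here.

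Counts were filtered with filterByExpr (16625 genes kept), normalized by TMM, and fitted with edgeR 4.0.16 in R 4.3.3 as 1 quasi-likelihood model with a mean per line over all 12 samples. Benjamini-Hochberg adjustment ran over all tested genes, and calls needed an adjusted p below 0.01 with more than a 2-fold change. The members and lists were chosen with earlier results of these data known. Genes named are the 4 members, E2F1, the antisense neighbours, at most 4 called genes per list and line, the most highly read gene of each list, and those most correlated with a member (mean count of at least 50). THBS1 and the marker genes singled out were chosen after their values were seen. CPM use TMM library sizes, and log2 CPM use a prior count of 2. Counting intervals are at 95%.

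Lengths and GRCh37 positions came from GENCODE, and promoters from RefSeq (GRCh38.p14), which held windows for all 4 members. Alternatives were DESeq2 1.42.0, RLE normalization, no filter, a replicate block, glmTreat against 2-fold, an adjusted p-value under 0.05, only the 6 samples compared, and each replicate left out in turn. The length of a reference transcript, and leaving out WT replicate 2 in comparisons without WT, were added after the data were seen. On simulated counts for KK against pTRE, with 15988 genes and 200 of them changed by a log2 of 2, edgeR recovered 200 with 2 false calls. The recovery was not split by read count. It therefore does not show how many such changes would be found among genes with few reads, such as RELN, DAB1, and VLDLR-AS1. With 3 replicates per line, p-values measure the spread between these samples.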

Additional observations from a re-analysis of the deposited data

Results flagged for a closer look

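THBS1, a ligand of VLDLR and LRP8, was singled out because its change from pTRE differed between R109K and KK in the direct test of the difference. The difference was −1.002 on the log2 scale (SE 0.14, adjusted p = 0.00451 by edgeR), with every R109K sample (217 to 254 CPM) below every KK sample (389 to 514 CPM). Of all tested genes, 0.0902% were called between these lines and 21% had samples that did not overlap. Over the settings that kept all samples of these lines, the adjusted p ranged from 5.31e-10 with DESeq2 to 1.0 when tested against 2-fold. The summed osteoblastic markers, mostly COL1A1 and SPARC, were 1595 to 1745 CPM in R109K and 1268 to 1505 in KK. Their part in the difference was not tested.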

How the results depend on the processing

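The rise of RELN in KK kept its direction and its call in every alternative, and no call of VLDLR, LRP8, or DAB1 was gained. Differences near 0 changed sign. VLDLR in R109K against KK was 0.0078 with no filter on low counts, 0.0012 with the replicate block, and −0.11 to 0.0928 with 1 replicate left out, and DAB1 in WT against pTRE was −0.37 to 0.18 with 1 replicate left out. Counts of listed genes moved as well. Tested against 2-fold with glmTreat, 2 rose in WT, 1 in KK, and 0 in R109K, and 0 fell in any line. At an adjusted p-value under 0.05, 4 rose in R109K. With 1 replicate left out, 4 to 7 rose and 3 to 4 fell in KK, 1 to 3 rose and 1 to 3 fell in R109K, and 5 to 8 rose and 3 to 5 fell in WT. The count of listed genes lower in R109K than in KK, which was 1 (THBS1), became 0 with no filter, the replicate block, glmTreat, or only the 6 samples compared, and was 0 to 1 with 1 replicate left out.

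With the length of a reference transcript, the mean levels per length in pTRE, WT, R109K, and KK were 0.00860, 0.542, 0.0749, and 0.296 for RELN, 7.63, 5.61, 5.98, and 5.98 for VLDLR, and 13.7, 16.3, 15.3, and 16.9 for LRP8. DAB1 was at 0.108, 0.173, and 0.143 in WT, R109K, and KK. Replicate numbers were not used as pairs in the main model. The 18 pairs of samples with the same number had a mean correlation of 0.0435 (−0.295 to 0.47). The 36 pairs with different numbers had a mean of −0.0234 (−0.383 to 0.314). Whether samples of the same number shared a batch was not tested. With the replicate block RELN rose by 4.98 in KK, and the calls of VLDLR-AS1 (adjusted p = 0.0116) and LRP2 (0.0105) in KK against pTRE and of THBS1 in R109K against KK (0.012) were lost. The few RELN reads in pTRE and the few DAB1 reads in every line limit the precision of their folds.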
